A study of Mus musculus with 2 samples.

Results

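The POU motifs outside POU class 4 were followed across single cells of the embryonic mouse retina. The set held 8 of the 579 transcription factor motifs in the deposited matrices: POU1F1, POU2F1, POU2F2, POU3F1, POU3F2, POU3F3, POU3F4 and POU6F1. They were chosen by name alone, and the 3 motifs of POU class 4 (POU4F1, POU4F2 and POU4F3) served as the comparison. Other motifs with POU in their name, among them Pou5f1::Sox2, Pou2f3, POU5F1B and POU5F1, belonged to neither group.

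Accessible chromatin was profiled by droplet-based single-cell ATAC-seq in retina of wild-type (WT) mouse embryos at E14.5. There were 2 replicate libraries of this 1 group, with no treatment or other genotype, so conditions could not be compared. Whether separate animals or litters were used for the replicates is not in the labels, so each SD (n = 2) gives a spread between libraries that may be only technical. Each value counts transposase cuts in peaks that hold a motif, so it reports accessibility of those peaks and not the presence or binding of the factor.

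POU factors bind DNA through a POU-specific domain joined by a flexible linker to a POU homeodomain. Many of them recognise the octamer sequence and its variants, and the linker allows other spacings and orientations, so members of the family have overlapping patterns. In the retina, POU class 4 factors are known for their part in the differentiation and axon growth of ganglion cells, the projection neurons of the eye. POU class 3 factors act in neural progenitors and developing neurons. Motif letters were not in the tables used here, so no sequences are shown.

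Replicate 1 held 2422 barcodes and 3373212147 motif counts, and replicate 2 held 3033 barcodes and 3932721221 counts. A barcode was kept as a cell where it had at least 300000 counts and more counts than the same barcode in the other library. This left 890 and 1051 cells, with median totals of 3519151 and 3523871 counts. The libraries shared 1828 barcodes, and 872 of the 890 and 925 of the 1051 kept barcodes also occurred in the other library with a lower total. Only 18 and 126 cells remained when shared barcodes were left out altogether, and values from those cells are given beside the results they move.

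All 8 members were well covered: their mean counts per cell lay between 1174 (POU6F1, replicate 1) and 4666 (POU3F4, replicate 1), and no kept cell had a count of 0 for any of them. Together they took 0.400% of the motif counts of replicate 1 and 0.406% of replicate 2. The median share of the members was 0.0375% and 0.0377%, and that of all motifs was 0.0412% and 0.0409%. A share depends on how many peaks hold the pattern, so its size ranks the patterns and not the factors.

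The POU class 2 factors are the classical octamer-binding proteins. POU2F1 is expressed in most tissues, and its motif took 0.0359% of the counts in replicate 1 and 0.0358% in replicate 2. POU2F2, best known from B cells, had a larger share, with 0.0477% and 0.0485%. The POU class 3 motifs fell into a high and a low level. POU3F4, a factor of neural tube and inner ear development, had by far the largest share of the 8, at 0.125% and 0.128%. POU3F1, which is known from myelinating Schwann cells, took 0.0382% and 0.0385%. POU3F2 and POU3F3 are both factors of cortical neuron development. POU3F2 took 0.0357% in each library, and POU3F3 took 0.0369% in each. The motif named for POU1F1, the pituitary factor of growth hormone and prolactin expression, had shares of 0.0486% and 0.0499%. POU6F1, a divergent member of the family expressed in the nervous system, had the smallest share, 0.0315% and 0.0327%.

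In order of their mean share, the motifs ran POU3F4, POU1F1, POU2F2, POU3F1, POU3F3, POU2F1, POU3F2 and POU6F1. No neighbours in this order overlapped between libraries, but the means of POU1F1 (0.0493% ± 0.00089, SD, n = 2) and POU2F2 (0.0481% ± 0.00061, SD, n = 2) differed by less than the sum of their SDs. Shares were lower in replicate 1 for 6 of the 8 members, against 268 of all 579 motifs. The libraries differed by more than 0.05 in log2 share for 1 of the 8 members, POU6F1, and for 155 of all 579 motifs. POU5F1B had the same counts as POU3F4 in every kept cell, so whatever is given for POU3F4 holds for POU5F1B and the factors behind the pattern cannot be told apart.

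The members varied less from cell to cell than the POU class 4 motifs. Variability was expressed as an excess CV, the coefficient of variation between cells after scaling to equal depth and subtracting Poisson counting error. Among the octamer motifs, POU2F1 had an excess CV of 5.49% in replicate 1 and 5.76% in replicate 2, and POU2F2 of 4.94% and 5.11%. In class 3, POU3F4 was the steadiest of all 8, with 3.61% and 3.45%. POU3F1 (4.76% and 5.26%), POU3F2 (4.67% and 5.34%) and POU3F3 (5.11% and 5.78%) lay close together. POU1F1 had 5.15% and 4.85%. POU6F1 was the most variable member, with 5.51% and 6.11%.

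The 8 members all lay below the median of all motifs (6.19% and 6.27%) in both libraries, as did 273 of the 579 motifs. All 3 POU class 4 motifs lay above it. POU4F1 had 16.2% and 15.1%, POU4F3 13.7% and 12.5%, and POU4F2 11.6% and 11.3%. POU4F2 and POU2F2 had like shares (0.0471% ± 0.00012 and 0.0481% ± 0.00061, SD, n = 2), and their excess CVs were 11.4% ± 0.22 and 5.03% ± 0.12 (SD, n = 2). The difference between the groups has no test here, since motifs are not replicates and there are only 2 libraries. Among the cells themselves, the share at the 90th percentile was 1.10 times that at the 10th for POU3F4 in both libraries, and 1.17 times for POU6F1 in each. For POU4F1 the same ratio was 1.49 and 1.45. Its median was 1.15 and 1.16 over the members and 1.16 and 1.17 over all motifs. By this ratio, from which counting error is not subtracted, the members were thus close to the median motif.

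**Figure D1:**
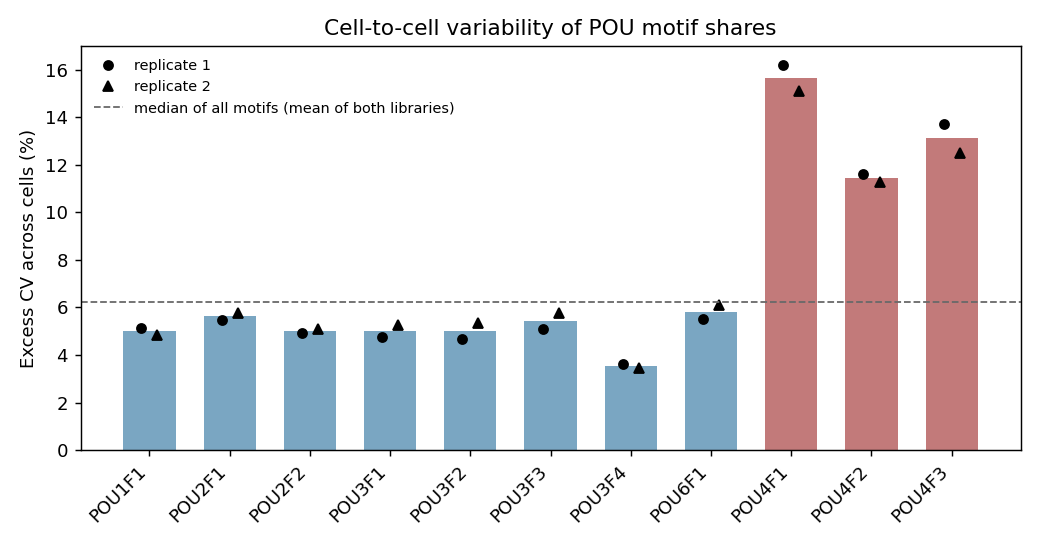
Excess CV across cells (%, vertical axis) of the 8 members (blue) and the 3 POU class 4 motifs (red). Bars give the mean of the libraries, circles replicate 1 and triangles replicate 2. The members lie between 3.45% and 6.11%, below the dashed median of all motifs, and POU class 4 lies between 11.3% and 16.2%.

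The small variation that the members had was partly shared among them. Across cells of a library, Pearson's r between log2 shares was positive in 27 of the 28 member pairs in replicate 1 and in all 28 in replicate 2, with medians of 0.37 and 0.44. Over all 167331 pairs of motifs the medians were 0.0031 and 0.0059. These correlations are descriptions: the points are cells of 1 library, motifs with like patterns count the same cuts, and shares of 1 total are not free to vary separately.

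POU3F1 and POU3F2 were the closest pair, with r of 0.80 and 0.84. Each of them also went with POU3F3, at 0.67 and 0.69 for POU3F1 and 0.60 and 0.68 for POU3F2. POU3F4, although of the same class, went less closely with these 3 motifs, with r between 0.20 and 0.35 in replicate 1 and between 0.33 and 0.42 in replicate 2. Its nearest motifs were POU2F2 (0.66 and 0.66), POU5F1 (0.64 and 0.61) and Pou2f3 (0.60 and 0.57), which are octamer motifs of other classes.

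From the side of POU2F2, POU5F1 came first (0.66 and 0.71), followed by POU3F4 and its copy POU5F1B. POU2F1 instead lay nearest to POU3F3 (0.64 and 0.62), then POU1F1 (0.52 and 0.56) and POU5F1 (0.52 and 0.51). POU1F1 stood between these groups, with POU3F2 (0.56 and 0.56), POU2F2 (0.57 and 0.51) and POU2F1 (0.52 and 0.56) nearest. The grouping by correlation followed the classes of the proteins only in part. POU3F1, POU3F2 and POU3F3 went together, while POU3F4, POU2F1 and POU2F2 lay nearest to motifs of other classes.

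POU6F1 stood apart from the other 7 members. Its 7 correlations with them had medians of 0.068 and 0.23, while the 21 pairs without it had medians of 0.49 and 0.51 and were all positive. The motifs nearest to POU6F1 were those of the homeodomain factors Alx1 (0.67 and 0.71) and Alx4 (0.63 and 0.68). For every other member the 3 nearest motifs were POU motifs.

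**Figure D2:**
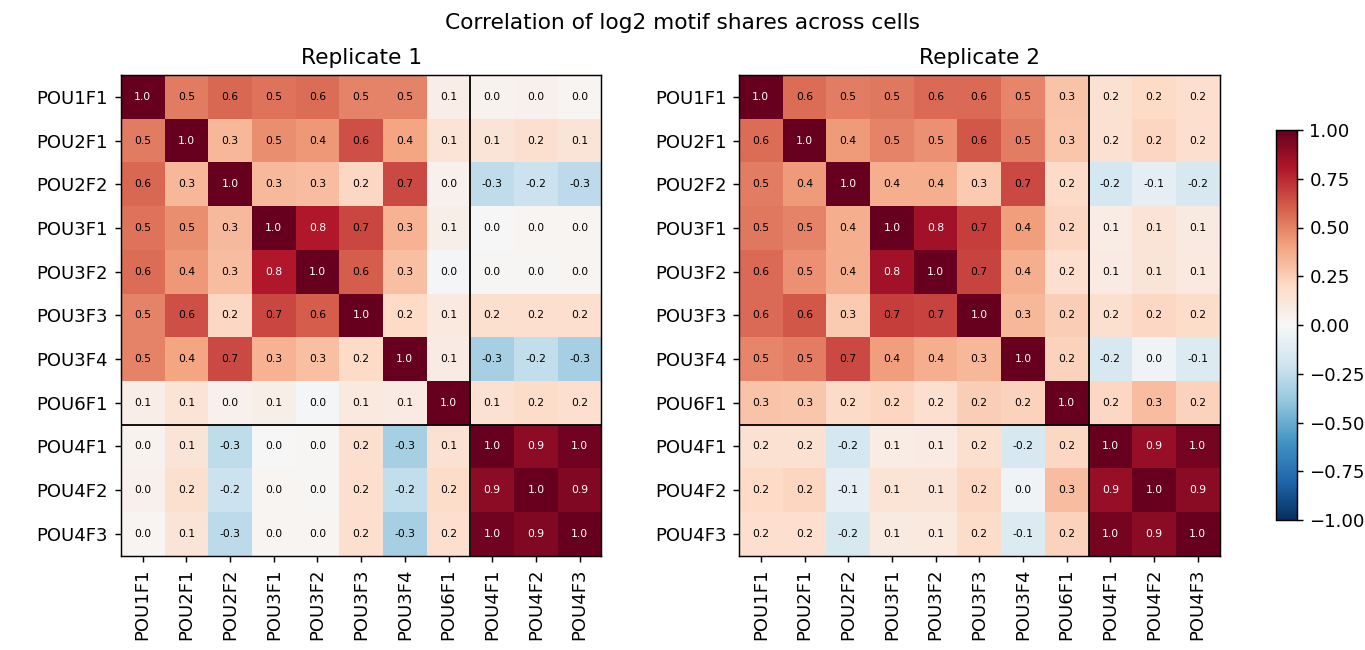
Pearson r of log2 shares across the cells of each library, for the 8 members and, past the black lines, the 3 POU class 4 motifs (rows and columns). Red is positive and blue negative. POU3F1, POU3F2 and POU3F3 form one block, POU2F2 pairs with POU3F4, and POU class 4 forms a separate block with r from 0.87 to 0.96.

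The members had low correlations with the POU class 4 motifs. The 3 class 4 motifs correlated with one another at 0.87 to 0.96. Set against the mean class 4 score of each cell, none of the 8 members reached an r of 0.3 in either library. Most other motifs did not reach it either: 44 and 31 of all 579 did, with the 3 class 4 motifs among them. Positive values were found for 6 of the 8 members in each library, against 241 and 250 of the 579 motifs. The members' median r was 0.024 and 0.14, and that of all motifs was -0.039 and -0.032.

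The members differed in sign. POU6F1 (0.17 and 0.25), POU3F3 (0.17 and 0.19) and POU2F1 (0.14 and 0.18) had the highest values in both libraries. POU1F1 (0.033 and 0.18), POU3F2 (0.015 and 0.10) and POU3F1 (0.016 and 0.10) were near 0 in replicate 1. The pair of octamer motifs POU2F2 (-0.25 and -0.15) and POU3F4 (-0.31 and -0.12) had negative values in both. With barcodes of 1 library only these signs did not hold: POU2F2 was at 0.088 and 0.18, and POU3F4 at -0.19 and 0.31. Over all kept cells, POU6F1 ranked 91st and 43rd of the 576 motifs outside class 4, POU3F3 90th and 71st, and POU2F1 101st and 76th. POU2F2 ranked 522nd and 458th. POU3F4 ranked 554th in replicate 1 and 417th in replicate 2, so the libraries differed in how far it stood from the rest.

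These values moved with depth. In the shallowest of 3 depth classes the members' median r was 0.17 and 0.23, in the middle class it was -0.041 and 0.062, and in the deepest -0.093 and 0.076. For POU3F4 the values were -0.17 and 0.090 in the shallowest class, -0.47 and -0.35 in the middle class and -0.41 and -0.28 in the deepest. POU2F2 also had its weakest values in the shallowest class (-0.15 and -0.0057) and -0.32 and -0.27 in the middle one. The part of depth in these correlations was not tested. With barcodes of 1 library only, the members' median r over both libraries was 0.21, against 0.083 over all kept cells.

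When the cells of each library were ranked by their class 4 score and split into deciles, the class 4 motifs, which made the ranking, were higher in the top than in the bottom decile by 0.70 and 0.66 (POU4F1), 0.60 and 0.56 (POU4F3) and 0.54 and 0.53 (POU4F2) in log2 share. A motif was counted as different where its log2 share differed by at least 0.1 in the same direction in both libraries. By that measure 0 of the 8 members were higher in the top decile and 0 were lower. Of the 576 motifs outside class 4, 3.3% were higher and 5.03% lower.

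The largest member difference between these deciles belonged to POU6F1, at 0.086 and 0.075, followed by POU3F3 (0.049 and 0.061) and POU2F1 (0.041 and 0.034). Negative differences in both libraries were found for POU2F2 (-0.064 and -0.062) and POU3F4 (-0.059 and -0.034). POU1F1 (0.00057 and 0.030), POU3F1 (-0.0059 and 0.030) and POU3F2 (-0.017 and 0.019) differed between libraries by more than their mean. In 18 and 126 cells from barcodes of 1 library only, the members' median difference was 0.083, against 0.0136 in all kept cells. In those cells POU3F3 stood at 0.29 and 0.19 and POU2F1 at 0.28 and 0.16, and POU6F1 and POU3F1 reached 0.12 in the mean of the libraries. With 18 cells in replicate 1, its top and bottom deciles hold very few cells, so its values are no separate support.

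The profile along the deciles was not a straight line for any of the octamer motifs. POU2F2 stood within 0.030 of its library share through the first 8 deciles, then at -0.058 and -0.020 in the ninth and at -0.065 and -0.071 in the top decile. POU3F4 did likewise, with 0.023 and 0.019 in the eighth decile, -0.037 and -0.017 in the ninth and -0.064 and -0.050 in the top. POU3F3, POU2F1 and POU6F1 had their lowest value at the other end: the bottom decile was at -0.045 and -0.051 for POU3F3, -0.040 and -0.031 for POU2F1 and -0.059 and -0.050 for POU6F1. In the top decile POU6F1 stood at 0.027 and 0.025.

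Among the POU motifs outside both groups, negative values in the top decile in both libraries were also found for Pou5f1::Sox2 (-0.12 and -0.11), Pou2f3 (-0.065 and -0.063) and POU5F1 (-0.045 and -0.031).

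**Figure D3:**
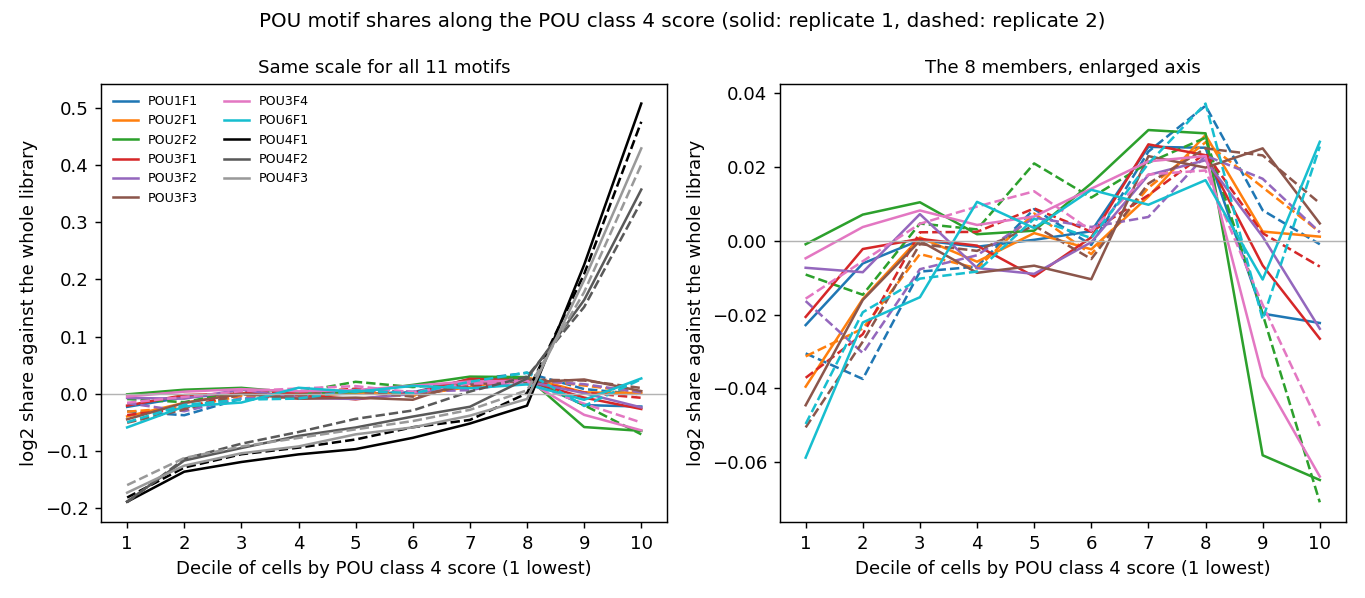
Log2 share against the whole library (vertical axis) in deciles of cells ranked by POU class 4 score (horizontal axis), solid for replicate 1 and dashed for replicate 2. Left, all 11 motifs on one scale; right, the 8 members enlarged. POU4F1 reaches 0.51 and 0.48 in the top decile, while POU2F2 ends at -0.065 and -0.071.

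Cells were also clustered on the 563 motifs with no POU in their name. No motif of either group was used, but motifs that correlated with them stayed in. Alx1 had r of 0.67 and 0.71 with POU6F1, and MEIS1 0.68 and 0.68 with POU4F1. The clusters thus cannot be taken as independent of either group. Of the 6 clusters, cluster 3 (81 and 97 cells, 9.10% and 9.23%) had the highest class 4 score in each library, and it was picked for each library from the other. Among its leading motifs were CUX1 (0.25 and 0.30 in log2 share over the mean of the other clusters) and ONECUT1 (0.22 and 0.26), and it was given no cell type name because only 2 ganglion cell motifs, EBF1 and ISL2, were left to name it by.

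POU4F1 was higher in cluster 3 by 0.54 and 0.53, POU4F3 by 0.45 and 0.44 and POU4F2 by 0.39 and 0.38. POU2F2 took 0.0454% and 0.0461% of the counts there and lay -0.067 and -0.066 from the other clusters. POU3F4 lay at -0.063 and -0.042. POU6F1, on the positive side, lay at 0.039 and 0.052. The remaining members were within 0.037 of the other clusters, and POU1F1, POU3F1 and POU3F2 had opposite signs in the libraries. Past a difference of 0.1 in both libraries there were 0 of 8 members in either direction, against 3.3% of the 576 other motifs that were higher and 2.95% that were lower. The members' median was -0.013 and all motifs' was -0.015.

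The member values that were largest in size came from other clusters. In cluster 1 (198 and 252 cells), the leading motifs were MYBL1, RORB, Sox1 and SOX4. MYBL1 also led clusters 2 and 6, by 0.29 and 0.81 in the mean of the libraries, and took only about 0.0002% of the counts. The members in cluster 1 lay from 0.028 (POU3F2, replicate 1) to 0.078 (POU2F2 in replicate 1 and POU6F1 in replicate 2). Their median there was 0.051, against -0.0028 for all motifs. The members correlated with one another, so their common sign is not 8 separate results. In the same cluster the SOX progenitor list had a median of 0.071 and the homeodomain progenitor list one of 0.079. The AT-rich homeodomain list was at 0.063 and the TEAD and NFI progenitor list at 0.056. The remaining lists were at 0.025 (cell cycle) or lower. In cluster 4 (176 and 190 cells), led by NEUROD1, NEUROD2 and Neurog1, POU3F3 was at 0.064 and 0.056, while POU6F1 was at -0.023 in both libraries. POU6F1 had its lowest values in cluster 5 (65 and 67 cells), at -0.093 and -0.094. The median depth of cluster 5 was 0.61 and 0.68 times that of its library, and the part of depth in these values was not tested.

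No member passed 0.1 in any cluster. The shares of all motifs that did were 2.59% higher and 2.59% lower in cluster 1, 0.345% and 1.9% in cluster 2, 2.76% and 0.345% in cluster 4, 13.8% and 7.77% in cluster 5, and 5.53% and 3.11% in cluster 6. Between its highest and lowest cluster a member ranged from 0.066 (POU3F2) to 0.14 (POU6F1) on the log2 scale, the median motif by 0.13, and the class 4 motifs by 0.49 to 0.61.

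**Figure D4:**
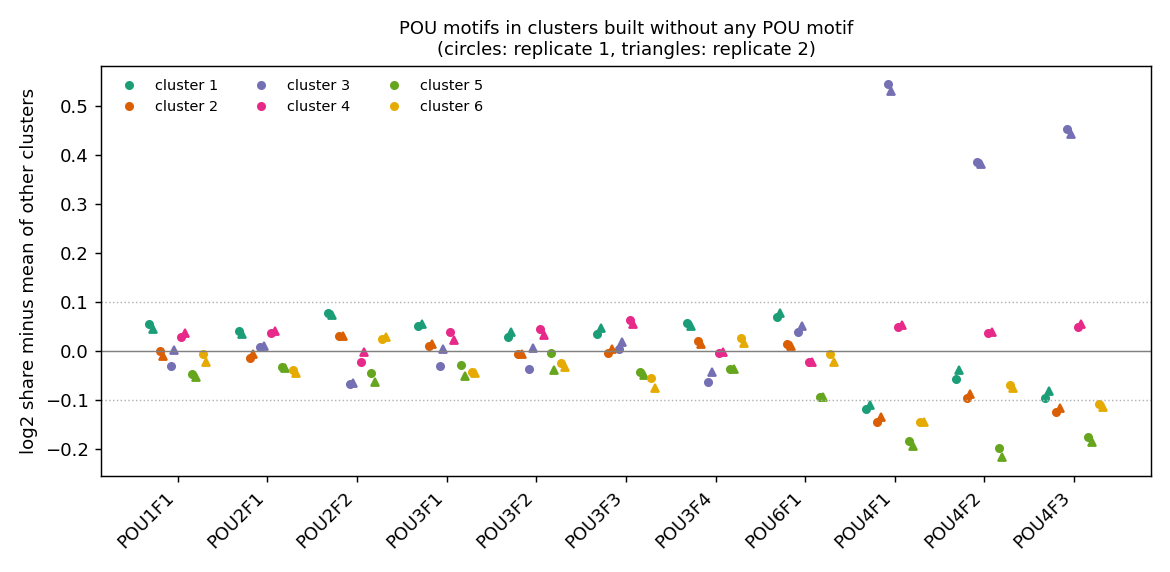
Log2 share minus the mean of the other clusters (vertical axis) for 11 POU motifs in 6 clusters built without POU motifs; circles are replicate 1, triangles replicate 2, and dotted lines mark 0.1 and -0.1. In cluster 3 the class 4 motifs lie between 0.38 and 0.54, while every member lies within the dotted lines in all 6 clusters.

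The members' mean score per cell was then set beside 13 lists of motifs, again as a description. It went with AT-rich homeodomain motifs (r with the list's mean score 0.49 and 0.54, 27 of 30 motifs positive in both libraries, VAX1 highest, HOXB3 lowest), with the SOX progenitor list (0.42 and 0.36, 8 of 8 positive, SOX9 highest, SOX8 lowest) and with the homeodomain progenitor list (0.32 and 0.42, 6 of 7, VSX1 highest, Six3 lowest). The AT-rich homeodomain list was picked for patterns near that of the POU homeodomain, so its r is no independent result. That list shares LHX2 and LHX9 with the homeodomain progenitor list, and its MSX1 and MSX2 rows had the same shares. The members' score went against GC-rich promoter motifs (-0.34 and -0.41, 11 of 11 negative, EGR1 highest, SP2 lowest), pigment epithelium motifs (-0.29 and -0.35, 4 of 4, TFEC to TFE3) and horizontal and amacrine motifs (-0.24 and -0.19, 9 of 13, ONECUT3 highest, TFAP2A(var.2) lowest). Most rows of the horizontal and amacrine list are variants of TFAP2A, TFAP2B and TFAP2C. In that list 3 rows were positive in both libraries, among them ONECUT3 (0.10 and 0.13).

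Weaker values were found for the neurogenic bHLH list (0.15 and 0.18, BHLHE23 highest), TEAD and NFI progenitor motifs (0.12 and 0.24, TEAD1 to NFIC), photoreceptor motifs (0.13 and 0.18, RORB to Pitx1) and microglia motifs (0.072 and 0.23, IRF1 to SPIB). In the photoreceptor list the median motif was instead at -0.070 and -0.0078, with 4 of 12 motifs positive and 5 negative in both libraries. The median microglia motif was at -0.0066 and 0.10, with SPIB at -0.36 and -0.22. The ganglion cell (-0.13 and -0.063, ISL2 and EBF1), endothelial and erythroid (-0.073 and -0.098, GATA6 to Klf1) and cell cycle lists (-0.057 and -0.0044, E2F2 to E2F4) were at or below 0. The class 4 score went differently with several lists: 0.52 and 0.50 with ganglion cell motifs and -0.096 and -0.028 with AT-rich homeodomain motifs. The negative values with GC-rich promoter motifs were common to both groups, with -0.29 and -0.29 for class 4.

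Whether member shares differed with depth was tested on counts summed per library and depth class, deepest against shallowest, with edgeR's quasi-likelihood test, the library as a block and Benjamini-Hochberg adjustment over all 579 motifs. The test passed for 3 of the 8 members, which were higher in deep cells, and for 0 that were lower. Of all motifs 30.9% were higher and 35.9% lower. POU3F4 went from 0.124% to 0.127% in replicate 1 and from 0.127% to 0.129% in replicate 2, and its fitted log2 difference, which is on the TMM scale and not that of the shares, was 0.020 (SE 0.0030, adjusted p = 0.00048, edgeR). POU2F2 differed by 0.016 (SE 0.0038, adjusted p = 0.0047, edgeR) and POU1F1 by 0.015 (SE 0.0051, adjusted p = 0.029, edgeR). Each SE here is the size of the fitted log2 difference divided by the square root of the F statistic of the test.

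POU6F1 (0.014, SE 0.0056, adjusted p = 0.056, edgeR) missed the threshold, as did POU2F1, POU3F1 and POU3F2. POU3F3 had no usable test, since its F statistic came out at or below 0, and its shares were 0.0369% in both classes of replicate 1 and 0.0366% and 0.0370% in replicate 2. Of the class 4 motifs, POU4F1 (-0.049, adjusted p = 3.15e-05, edgeR) and POU4F3 (-0.032, adjusted p = 0.00023, edgeR) were lower in deep cells. POU4F2 had a fitted difference of -0.014 (adjusted p = 0.021, edgeR), but its unscaled share was higher in the deep cells of replicate 1 (0.0463% to 0.0466%) and lower only in replicate 2 (0.0473% to 0.0466%). POU4F2 turned to 0.0084 without the deepest 10% of cells, where POU2F2 (adjusted p = 0.066, edgeR) and POU1F1 (adjusted p = 0.19, edgeR) also missed the threshold and POU3F4 did not (adjusted p = 0.024, edgeR). Without the library block no member passed, and neither did any other motif (122 of 579 had an unadjusted p under 0.05). Without TMM scaling 6 members were called higher, and the split over all motifs moved to 245 higher and 165 lower from 179 and 208.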

How the data were processed

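Per the file headers, the deposited matrices hold whole-number counts of motifs by barcode, written by software version 1.1.0; Cell Ranger and mm10 are named in the submitters' processing notes. How peaks and motifs were found is not given in the sources used here. The authors' counts were used as deposited. Members, lists and tests were chosen with earlier results of these data known. Barcodes with at least 300000 counts, and more than in the other library, were kept; no doublet caller was run. Shares are of a cell's total; log2 shares had 0.5 counts added. Clusters used 15 components, 20 neighbours and Leiden resolution 0.5 (scanpy 1.11.5, igraph 0.11.9), with log10 total regressed out. The depth test used edgeR 4.0.16 (R 4.3.3) with TMM, 3 depth classes, and library as block, since both classes of a library share it. DESeq2 1.42.0 was an alternative. The rule for named motifs took the 8 members, every other POU motif, the 3 motifs nearest each member, and for 13 lists the values and extremes; a few of these motifs are not reported here. Scripts were tested on simulated data.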

Additional observations from a re-analysis of the deposited data

Results flagged for a closer look

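The barcodes that were not kept as cells also held counts of the 8 members. In the 1532 left-out barcodes of replicate 1 the members took 0.400% of 57873148 motif counts, and in the 1982 of replicate 2 they took 0.406% of 106916585. The kept cells had 0.400% and 0.406%. Some of these barcodes enter the values given with at least 100000 counts per cell and otherwise no comparison, and there are no control samples to set them against.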

How the results depend on the processing

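The median values and the count of members called in the depth test were recomputed with other settings. Of 48 such recomputed values, 35 kept within 1 SD of the library spread, or within 1.5 times the count. The members' median excess CV (5.16%) was 4.56% with at least 1000000 counts per cell, 6.70% with at least 100000, 8.31% with barcodes of 1 library only and 4.02% in the middle depth class. With barcodes of 1 library only, the median share was 0.0389%, the median r with class 4 was 0.21 and the top decile stood 0.083 above the bottom. These come from 18 and 126 cells, which were too few for clusters and leave very few cells of replicate 1 in a decile. At a Leiden resolution of 0.3 the members' median in the class 4 cluster was 0.025, above 0, against -0.013. With 1 library left out, the range was -0.023 to 0.011 for the cluster and -0.0027 to 0.030 for the deciles, so the sign of both medians depends on the library. No member difference reached 0.1 in the deciles or the cluster, except, in the mean of the libraries, 4 of the 8 in the deciles with barcodes of 1 library only. The class 4 motifs ranged from 0.22 to 0.54 in the cluster and from 0.41 to 0.92 in the deciles over all settings.

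In the depth test 3 members were called. The number was 1 with at least 100000 counts, 1 without the deepest 10% of cells, 6 without TMM, and 0 with barcodes of 1 library only, where edgeR called 0 of 579 motifs (47 had an unadjusted p under 0.05). Without the replicate block edgeR called 0 members and 0 of 579 motifs (122 had an unadjusted p under 0.05). DESeq2 called 4. POU4F2 turned to 0.0028 with at least 100000 counts and to 0.0084 without the deepest 10% of cells. The cause was not tested. Leaving out a library leaves no residual degrees of freedom in this test, so it was not run. The excess CV and the correlations with class 4 changed with depth, as given above and in the results by depth class. Shares are parts of 1 total, so a rise in some motifs lowers others.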
